A study of Homo sapiens with 12 samples.

Results

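Binding of the forkhead protein FOXA1, which can open closed chromatin and acts with the androgen receptor in luminal prostate cells, was examined at the genes of 3 luminal keratins (KRT8, KRT18 and KRT19) and 2 basal keratins (KRT5 and KRT14) in LNCaP, a line of human prostate cancer cells that respond to androgen. Peaks of 12 ChIP-seq libraries were taken where their centre lay in one of 4 hg19 windows. The luminal windows were chr12:53270000-53370000 for the neighbouring genes KRT8 and KRT18 and chr17:39660000-39710000 for KRT19, together 150 kb. The basal windows were chr12:52880000-52940000 for KRT5 and chr17:39720000-39770000 for KRT14, together 110 kb. The windows held 73 peaks, which formed 22 regions once peaks sharing at least 1 base were merged, of 178794 regions in the whole series. The windows were not chosen from a difference between treatments or between the gene classes, but with earlier results of these data known.

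Endogenous FOXA1 was precipitated after 7 days with 1 µM EPZ-6438, which blocks the histone methyltransferase EZH2, with 3 µM P5091, which blocks the ubiquitin protease USP7, with the combination of both at these doses, or with DMSO, the solvent control, with 2 libraries in each of the 4 groups. The other 4 libraries, 1 per condition, were made with an HA antibody at 5 days from infection. These were cells with a short hairpin against FOXA1 (shFoxA1) together with FOXA1 carrying the K295A substitution, cells with shFoxA1 together with wild-type (WT) FOXA1, cells with shFoxA1 alone and cells with the pGIPZ control. By their labels the last 2 have no HA-tagged protein, and the knockdown itself was not checked here. All samples are of 1 cell line, and nothing in the labels says whether replicates came from separate cultures, so the p-values below describe the spread between these libraries only. Peak lists record where a protein binds and not RNA, so the luminal state of the cells was not checked against keratin expression.

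Keratins are the intermediate filament proteins of epithelial cells and assemble as pairs of a type I and a type II chain. KRT8 (type II) pairs with KRT18 (type I) in simple and luminal epithelia, and KRT19 is a type I keratin of the same cells. KRT5 (type II) pairs with KRT14 (type I) in basal cells of stratified and glandular epithelia, including the prostate, so that these genes serve as markers of the luminal and basal compartments. In the RefSeq annotation of GRCh38.p14, KRT8 and KRT18 are next to each other, KRT19 lies between KRT15 and KRT9, KRT14 between KRT9 and KRT16, and KRT5 between KRT6A and KRT71. The peaks are in hg19, and no hg19 annotation was used here, so regions are given by position and were not assigned to a promoter, an intron or a gene body. Whether a window also holds a neighbouring keratin gene such as KRT15, KRT9 or KRT16 was not checked. Luminal and basal therefore name the windows below, and not the gene that a region serves.

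RefSeq promoter sequences (250 bases before and 50 bases after the gene start, GRCh38.p14) were at hand for KRT8 and KRT5 among the 5 genes. They are shown as 1 luminal and 1 basal keratin promoter and were searched for the forkhead core letters TGTTTAC and TGTTTGC on both strands, with matches in capitals. The KRT8 promoter is chr12:52926420-52926719 and the KRT5 promoter chr12:52520345-52520644, both in GRCh38.p14 and both on the minus strand.
KRT8: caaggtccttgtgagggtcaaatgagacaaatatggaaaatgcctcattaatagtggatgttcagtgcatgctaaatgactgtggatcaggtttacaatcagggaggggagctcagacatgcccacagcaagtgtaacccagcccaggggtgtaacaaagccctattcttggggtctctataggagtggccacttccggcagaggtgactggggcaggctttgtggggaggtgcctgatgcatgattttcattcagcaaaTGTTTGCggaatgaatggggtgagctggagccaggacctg
KRT5: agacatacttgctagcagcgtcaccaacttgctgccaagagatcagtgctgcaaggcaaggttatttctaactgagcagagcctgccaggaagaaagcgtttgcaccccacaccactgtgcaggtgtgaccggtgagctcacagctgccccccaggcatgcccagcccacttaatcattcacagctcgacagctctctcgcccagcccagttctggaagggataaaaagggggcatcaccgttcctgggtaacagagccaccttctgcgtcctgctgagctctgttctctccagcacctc
The KRT8 promoter held 1 match, TGTTTGC, on the strand of the gene at bases 11 to 17 after the gene start. The KRT5 promoter held 0 matches, which says only that these letters are not in this window. Of 35116 promoters of 300 bases in the same table, 7.17% held at least 1 of these motifs, 3.42% TGTTTAC and 3.89% TGTTTGC. These promoters were not placed relative to the peaks, since the builds differ and coordinates were not converted.

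Total tags ranged from 12299238 to 22589685 in the FOXA1 libraries and from 11640056 to 13694090 in the HA libraries. Signal is given throughout as the normalized tag count of a peak, which is its number of tags per 1e7 tags of the library. Of the FOXA1 libraries, 7 had 68504 to 84423 peaks and 18.9% to 21.2% of their tags in peaks, whereas combination replicate 1 had 30811 peaks and 5.26%, so results that rest on it are also given without it. Fragment lengths split the FOXA1 libraries by replicate number, with 274 to 278 bases in replicate 1 and 216 to 230 bases in replicate 2. Peak size, which is fixed within a library, was 356 to 365 bases in replicate 1 of DMSO, EPZ-6438 and P5091. It was 279 bases in combination replicate 1 and 274 to 296 bases in replicate 2. Normalized tag counts were not scaled to this size unless stated. The tag number required for a peak corresponded to normalized tag counts of 6.20 to 8.13 in the FOXA1 libraries. A library with no peak in a region has no value there; this is not a value of 0, because a peak can also be removed by the filters on local and input signal.

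FOXA1 signal in the keratin windows was dominated by 2 luminal regions that every FOXA1 library called. Of the 22 regions, 13 lay in the luminal windows and 9 in the basal windows. At least 1 FOXA1 library called 11 luminal and 8 basal regions. All 8 FOXA1 libraries called 2 luminal regions, 1 in the KRT8 and KRT18 window and 1 in the KRT19 window, and 0 basal regions. Without combination replicate 1, the other 7 libraries all called 2 luminal regions and 1 basal region, chr17:39756561-39757023 in the KRT14 window. These counts are small, and a difference between the classes was not tested. Among all 140823 regions with a FOXA1 peak in the genome, 17.2% were called in all 8 libraries, 51.5% in at least 4 and 26.4% in 1. The basal windows held 2 regions called in 4 to 7 FOXA1 libraries, 2 called in 2 or 3, and 4 called in 1. The luminal windows held 2, 2 and 5 such regions beside the leading pair. The untagged pGIPZ and shFoxA1 libraries called 0 of the 22 regions, and 0.771% of all regions of the series. These lists are short, with 971 peaks in shFoxA1 and 982 in pGIPZ.

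**Figure D1:**
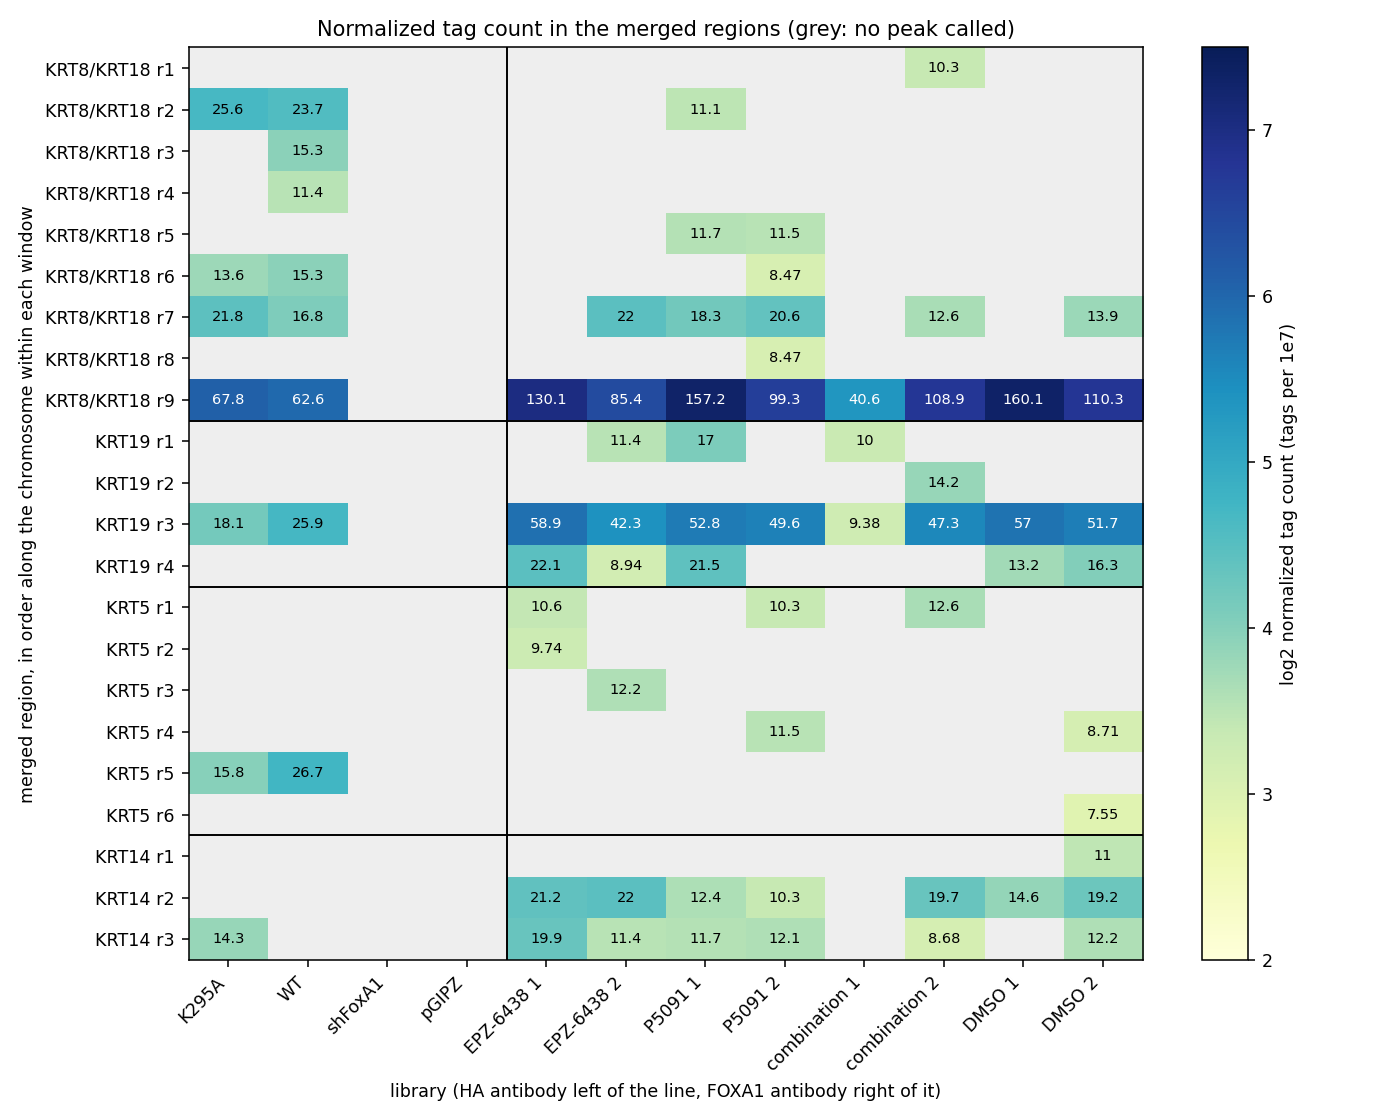
Normalized tag count (tags per 1e7) of each merged region (rows, numbered r1 upward along the chromosome within each window) in each library (columns); grey cells have no called peak and the colour is the log2 value. The rows KRT8/KRT18 r9 and KRT19 r3 are filled in all 8 FOXA1 libraries and in both K295A and WT, the basal rows reach at most 22.0 in the FOXA1 columns, and the untagged columns are empty.

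The strongest keratin region was chr12:53343544-53343926 in the window of KRT8 and KRT18. Its normalized tag counts in replicates 1 and 2 were 130.1 and 85.4 for EPZ-6438, 157.2 and 99.3 for P5091, 40.6 and 108.9 for the combination, and 160.1 and 110.3 for DMSO. Combination replicate 1 was the lowest of the 8, and replicate 1 exceeded replicate 2 in the other 3 groups. Peaks were also wider in replicate 1 of those 3 groups, and the share of peak size in this order was not tested. The peak stood at the 96.0 to 99.2 percentile of the peaks of each FOXA1 library and there had 35.4 to 61.5 times the tag density of the surrounding 10 kb. By mean signal it ranked 815 among the 24261 regions called in all 8 FOXA1 libraries. The peak centres of the 10 libraries that called it lay within 48 bases of each other. The nearest other region of the window was 22075 bases away.

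The leading region of the KRT19 window, chr17:39695537-39695906, was weaker. Its normalized tag counts were 58.9 and 42.3 for EPZ-6438, 52.8 and 49.6 for P5091, 9.38 and 47.3 for the combination, and 57.0 and 51.7 for DMSO. Combination replicate 1 was the one low value, and the other 7 lay between 42.3 and 58.9. In those 7 libraries the signal was 1.11 to 1.68 times the median that the library had at regions shared by all 8, and in combination replicate 1 it was 0.625 times. The region ranked 7600 of 24261 by mean signal. Its centres lay within 47 bases in 10 libraries.

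The other luminal regions were weak and called in part of the libraries. Of these, chr12:53309403-53309793 was the most frequent in the KRT8 and KRT18 window, with peaks in 5 FOXA1 libraries. Its values were 22.0 with EPZ-6438 replicate 2, 18.3 and 20.6 with P5091, 12.6 with combination replicate 2 and 13.9 with DMSO replicate 2. Both tagged proteins had a peak there as well. In the KRT19 window, chr17:39705943-39706375 gave 22.1 and 8.94 with EPZ-6438, 21.5 with P5091 replicate 1, and 13.2 and 16.3 with DMSO, and no peak was called with the combination. The remaining luminal regions with a FOXA1 peak were called in 1 to 3 libraries at 8.47 to 17.0.

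In the basal windows no FOXA1 peak exceeded 22.0 in any library, and combination replicate 1 had no basal peak. The KRT14 window held the most frequent basal region, chr17:39756561-39757023, called in 7 of 8 FOXA1 libraries. It gave 21.2 and 22.0 for EPZ-6438, 12.4 and 10.3 for P5091, 19.7 with combination replicate 2, and 14.6 and 19.2 with DMSO, and combination replicate 1 had no peak. Both EPZ-6438 values were above both DMSO values and both P5091 values were below them. The peak stood at the 15.2 to 63.8 percentile of the library's peaks, above the median peak in both EPZ-6438 libraries, combination replicate 2 and DMSO replicate 2. It was the 1 region above DMSO in this way among 4 keratin regions with values in all EPZ-6438 and DMSO libraries, and 0 lay below, where 14.1% of such regions in the genome lay above and 20.9% below. It was also the 1 region below DMSO among 3 with values in all P5091 and DMSO libraries, and 0 lay above, where 12.1% in the genome lay below and 10.4% above. Of regions called in the other 7 FOXA1 libraries, 35.8% had no peak in combination replicate 1. A second region of the KRT14 window, chr17:39761313-39761746, was called in 6 libraries, with 19.9 and 11.4 for EPZ-6438, 11.7 and 12.1 for P5091, 8.68 for combination replicate 2 and 12.2 for DMSO replicate 2. The third, chr17:39755846-39756134, had 11.0 in DMSO replicate 2 alone.

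The KRT5 window had no region that more than 3 FOXA1 libraries called. Its leading region, chr12:52889163-52889541, gave 10.6 with EPZ-6438 replicate 1, 10.3 with P5091 replicate 2 and 12.6 with combination replicate 2, and had no peak in either DMSO library. These values were 0.275 to 0.347 times the library medians at regions called in all 8 libraries. At chr12:52912458-52912758 the values were 11.5 with P5091 replicate 2 and 8.71 with DMSO replicate 2. The 3 other KRT5 regions with a FOXA1 peak were called in 1 library each, at 7.55 to 12.2. Peaks this close to the calling threshold can be present in one library and missing in another without a difference in signal that the lists could show.

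**Figure D2:**
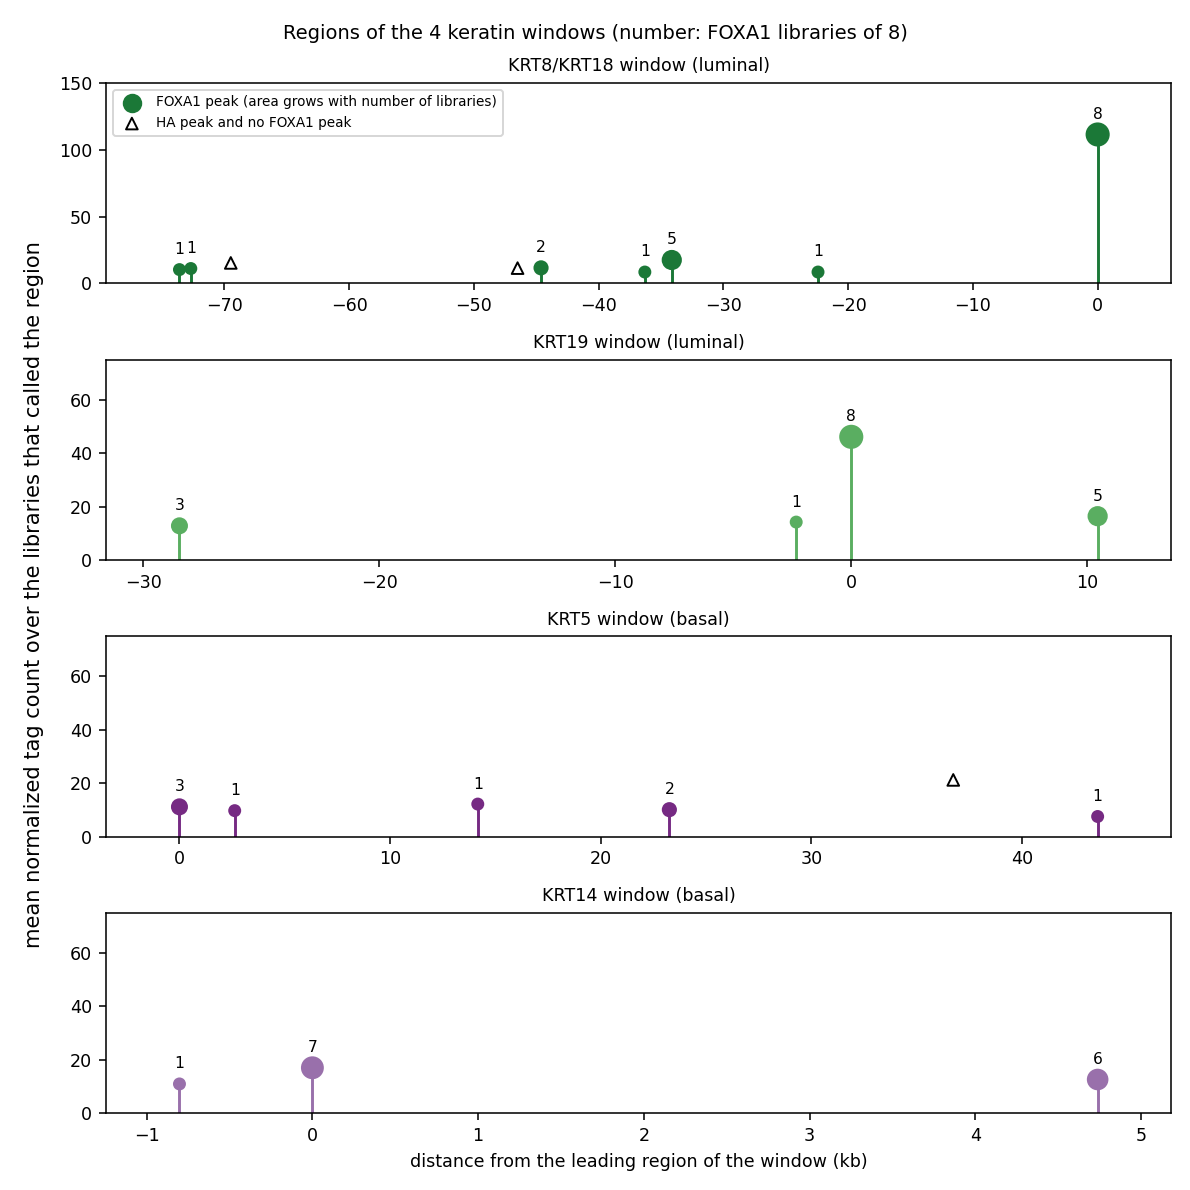
Mean normalized tag count over the FOXA1 libraries that called each region (vertical axis, tags per 1e7; the top panel has its own scale) against distance in kb from the leading region of the window. The number over each point is how many of the 8 FOXA1 libraries called the region, and open triangles are regions with an HA peak and no FOXA1 peak, at their mean over the HA libraries that called them. Regions called in all 8 libraries stand out in the luminal panels, and no basal FOXA1 point exceeds 17.1.

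Set side by side, the luminal windows carried more FOXA1 signal per length than the basal windows in each of the 7 FOXA1 libraries with a basal peak, while the number of peaks differed less. In combination replicate 1 no basal peak was called and no such comparison could be made. Summed normalized tag counts per 100 kb were 140.7 and 113.4 in the luminal windows with EPZ-6438, against 55.9 and 41.5 in the basal windows. With P5091 the luminal sums were 193.1 and 132.0, against 21.9 and 40.2 in the basal windows. With the combination they were 39.99 and 128.9, against 37.3 in the basal windows in replicate 2 and no basal peak in replicate 1. With DMSO they were 153.5 and 128.1, against 13.3 and 53.3 in the basal windows. The ratio of luminal to basal sums was 2.40 to 11.6, with a median of 3.28, in the 7 libraries with a basal peak. In DMSO replicate 1, which gave the highest ratio, a single basal peak was called, and in DMSO replicate 2, which gave the lowest, 5 were. A region without a called peak adds nothing to these sums. The ratio therefore also depends on how many weak regions passed the calling threshold.

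Peak numbers per 100 kb were 2.00 to 4.67 in the luminal windows and 0 to 4.55 in the basal windows, and the luminal value was the higher one in 6 of 8 libraries, or 5 of 7 without combination replicate 1. The exceptions were EPZ-6438 replicate 1, with 3 luminal and 4 basal peaks, and DMSO replicate 2, with 4 and 5. Luminal peaks covered 837 to 2499 bases per library and averaged 19.99 to 76.8 per peak, and basal peaks covered 0 to 1452 bases and averaged 11.1 to 15.4 where any was called. Covered bases follow from peak number and the fixed peak size of the library, so they are not a separate comparison. Without combination replicate 1 the lowest luminal values were 1089 covered bases and 33.0 per peak, and basal peaks covered at least 365 bases. The pair of luminal regions called in all 8 libraries held 72.5% to 94.3% of the luminal sum. Without that pair, a comparison added after the values were seen, the luminal windows had 6.67 to 53.1 per 100 kb. They then exceeded the basal windows in 1 of the 7 libraries with a basal peak, P5091 replicate 1. The basal windows kept their own leading regions here, so this comparison is tilted towards them by the way it was made. Over the genome, taking its size as the 2000000000 bases of the file headers, the same libraries had 1.54 to 4.22 peaks and a summed count of 26.3 to 106.0 per 100 kb. The low ends are those of combination replicate 1, and without it the genome had 3.43 to 4.22 peaks and 94.3 to 106.0 per 100 kb. The luminal sum was above that of the genome in 8 of 8 libraries, and the basal sum in 0 of the 7 with a basal peak. By peak number the luminal windows were above the genome in 2 of 8 libraries, P5091 replicate 1 and combination replicate 1, and the basal windows in 1 of 8, DMSO replicate 2. These comparisons rest on the genome size of the headers, while the windows were taken at full length. A larger genome size would lower the genome values and could raise the number of libraries in which a window class lies above them. The windows are few and were picked by gene, so this is a description of 4 places and no test of luminal against basal genes was made.

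**Figure D3:**
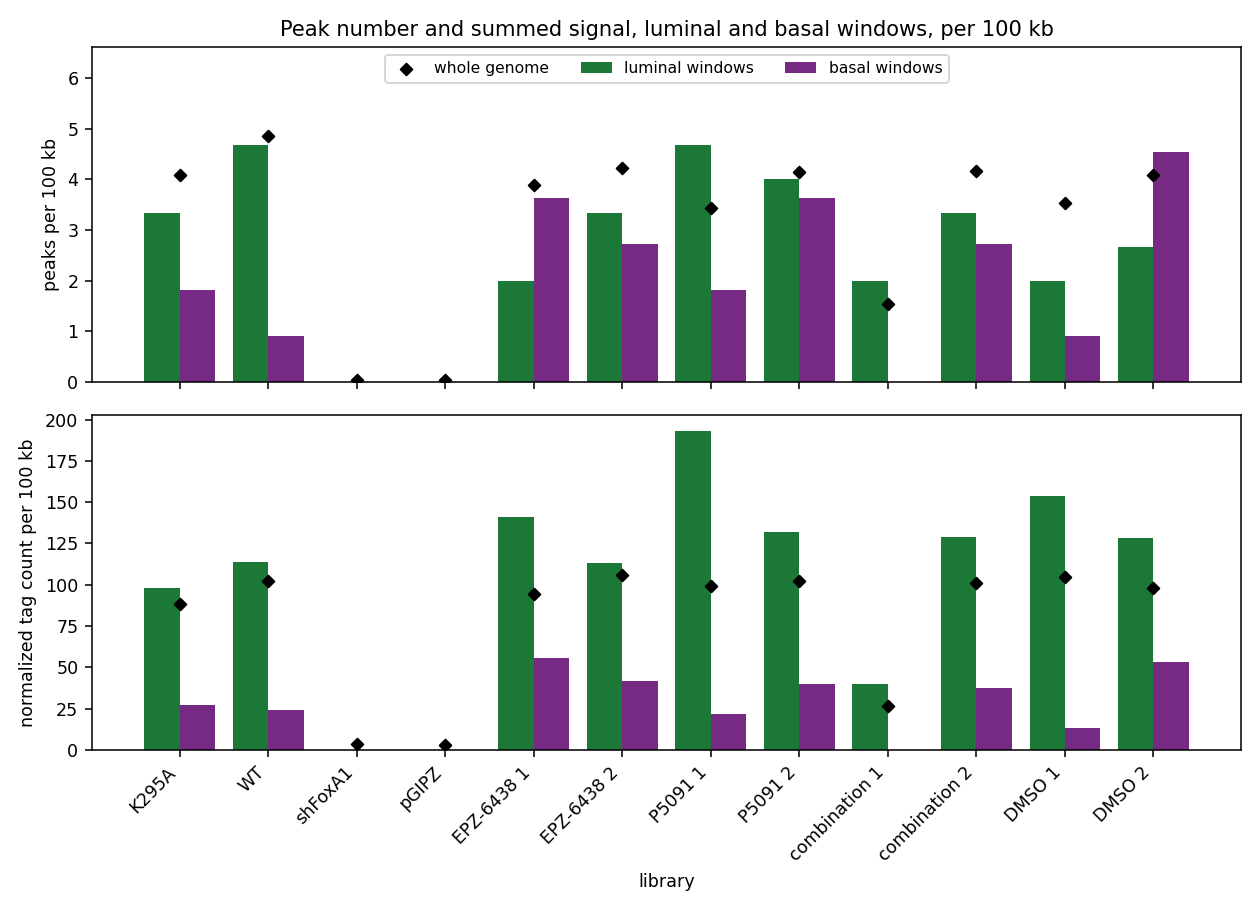
Peaks per 100 kb (top) and summed normalized tag count per 100 kb (bottom) in the luminal windows (green) and the basal windows (purple) of each library. Diamonds are whole-genome values at the genome size of the file headers. Green bars exceed purple bars in the lower panel in every library with peaks in both classes of window, and the upper panel has exceptions.

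Whether inhibition of EZH2, USP7 or both changed FOXA1 binding was tested with limma on log2 (normalized tag count + 1) at the 24261 regions that all 8 libraries share, adjusted by Benjamini-Hochberg over all of them. The leading regions of the KRT8 and KRT18 window and of the KRT19 window are the 2 keratin regions that could enter this test, and neither passed in any comparison. With EPZ-6438 the KRT8 and KRT18 region averaged 107.8 ± 31.6 (SD, n = 2), against 135.2 ± 35.2 with DMSO, a log2 difference of -0.33 (95% interval -1.46 to 0.79, limma adjusted p = 1). The KRT19 region averaged 50.6 ± 11.7 with EPZ-6438 and 54.4 ± 3.75 with DMSO (SD, n = 2 each), a log2 difference of -0.12 (-1.30 to 1.06, limma adjusted p = 1). With P5091 the averages were 128.3 ± 40.9 at the KRT8 and KRT18 region and 51.2 ± 2.26 at the KRT19 region (SD, n = 2), and the log2 differences from DMSO were -0.09 (-1.21 to 1.04) and -0.08 (-1.26 to 1.09), each with a limma adjusted p = 1. The intervals span more than a doubling in either direction at the KRT19 region, so these libraries cannot show that binding was alike. Their spread is pooled over all 4 groups and so includes the weak combination replicate 1. Without that library the log2 differences of both compounds were the same. The standard errors fell from 0.57 to 0.30 at the KRT8 and KRT18 region and from 0.60 to 0.33 at the KRT19 region. With all 8 libraries, 0% of the tested regions passed for EPZ-6438 and 0% for P5091, with 233 and 12 at an unadjusted p below 0.05 by limma. By edgeR 0 were called for each, with 1713 and 204 unadjusted.

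The replicate numbers gave the same picture. At the KRT8 and KRT18 region the log2 difference of EPZ-6438 from DMSO was -0.30 in replicate 1 and -0.37 in replicate 2, and that of P5091 was -0.03 and -0.15. At the KRT19 region EPZ-6438 gave 0.05 and -0.28, and P5091 gave -0.11 and -0.06. EPZ-6438 was thus lower than DMSO in both replicates at the KRT8 and KRT18 region, and its direction differed between replicates at KRT19. The median log2 difference over all 24261 regions was -0.20 and 0.04 for EPZ-6438 and -0.07 and 0.03 for P5091.

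With the combination both leading regions had lower averages than with DMSO, and the low values came from replicate 1. The KRT8 and KRT18 region averaged 74.8 ± 48.3 with the combination (SD, n = 2), a log2 difference from DMSO of -0.99 (95% interval -2.11 to 0.14, limma adjusted p = 0.364). The KRT19 region averaged 28.3 ± 26.8 (SD, n = 2), a difference of -1.30 (-2.48 to -0.13, limma adjusted p = 0.348, unadjusted p = 0.0299). By limma 0% of the tested regions passed, with 3418 at an unadjusted p below 0.05, and edgeR called 0, with 2537 unadjusted. Tags were counted over unequal lengths, with a peak size of 279 bases in combination replicate 1 and 365 in DMSO replicate 1. Scaled to 300 bases of peak, a fit that was not planned, the differences were -0.76 at the KRT8 and KRT18 region and -1.08 at the KRT19 region. Their unadjusted limma p-values were 0.19 and 0.081, and 1121 regions were below an unadjusted 0.05. Both regions lay below both DMSO values in both combination libraries, as did 41.9% of all regions with values in those 4 libraries, while 0.755% lay above. At the KRT8 and KRT18 region the margin was 108.9 with the combination against 110.3 with DMSO. In replicate 1 the log2 differences were -1.95 and -2.48, where the median of all tested regions was -1.35, and in replicate 2 they were -0.02 and -0.13, where the median was -0.03. In replicate 1, 13.1% of the tested regions differed from DMSO by a lower value than the KRT8 and KRT18 region, and 1.54% by a lower value than the KRT19 region. Without combination replicate 1 the differences were -0.29 and -0.19 (limma adjusted p = 0.881 and 0.933). Without combination replicate 2, so that replicate 1 stood alone for the treatment and was assumed to vary like the other groups, they were -1.69 and -2.41 and passed (limma adjusted p = 0.00139 and 0.000401), as did 66% of all 24502 regions tested.

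**Figure D4:**
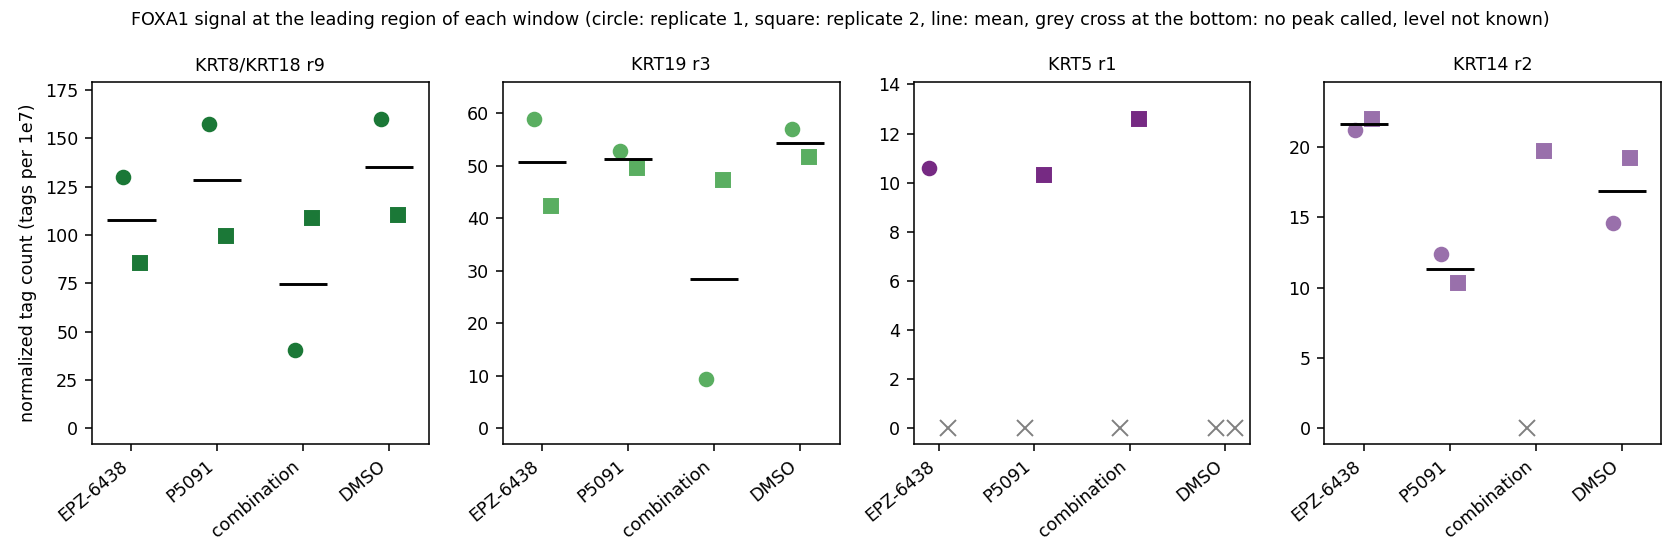
Normalized tag count (tags per 1e7, each panel with its own scale) of the leading region of each window by treatment, with circles for replicate 1, squares for replicate 2 and a line at the mean where both were called. Grey crosses at the bottom mark libraries with no called peak, whose level is not known. Combination replicate 1 is the lowest circle in the luminal panels (40.6 and 9.38) and has no peak in the basal panels.

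All libraries with EPZ-6438 were also set against all without it, and likewise for P5091, with 4 libraries on each side. For EPZ-6438 the log2 differences were -0.61 at the KRT8 and KRT18 region and -0.67 at the KRT19 region (limma adjusted p = 0.565 and 0.561), beside a median of -0.38 over all tested regions. For P5091 they were -0.37 and -0.63 (limma adjusted p = 0.84 for both), beside a median of -0.32. Without combination replicate 1 they became -0.26 and -0.11 for EPZ-6438 (limma adjusted p = 0.718 and 0.9) and -0.02 and -0.08 for P5091 (limma adjusted p = 1 for both). Without combination replicate 2 all 4 passed, at -0.96 and -1.22 for EPZ-6438 and -0.72 and -1.19 for P5091 (limma adjusted p = 0.00491, 0.00231, 0.0352 and 0.0219), together with 47% of all regions for EPZ-6438 and 29.9% for P5091. The interaction of the compounds was -0.57 and -1.10 (limma adjusted p = 0.874 for both), and at the KRT19 region it passed without combination replicate 2 (-2.21, limma adjusted p = 0.03), as did 24.2% of all regions. By limma 0% of the tested regions passed in each of these 3 comparisons, with 2156, 203 and 158 unadjusted, and edgeR called 36, 0 and 0, with 3280, 360 and 280 unadjusted.

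The basal region chr17:39756561-39757023 of the KRT14 window could be tested once combination replicate 1 was left out. EPZ-6438 averaged 21.6 ± 0.566 there, P5091 11.4 ± 1.48, and DMSO 16.9 ± 3.25 (SD, n = 2 each). The log2 difference from DMSO was 0.35 for EPZ-6438 (limma adjusted p = 0.909), -0.53 for P5091 (limma adjusted p = 1) and 0.22 for the remaining combination library (limma adjusted p = 0.934). The mean of the EPZ-6438 and combination groups minus the mean of the P5091 and DMSO groups was 0.55. None of these passed. Regions called in at least 4 libraries and in each group were also tested, which let in this region, chr17:39761313-39761746 of the same window and chr12:53309403-53309793 of the KRT8 and KRT18 window. For EPZ-6438, P5091 and the combination against DMSO the last gave 0.63, 0.45 and -0.13 and chr17:39761313-39761746 gave 0.29, -0.03 and -0.45, and none of the 3 regions passed by limma in any of the 6 comparisons. At chr12:53309403-53309793 and chr17:39761313-39761746 DMSO and the combination had values in replicate 2 only, as had EPZ-6438 at the former. Within replicate 2, EPZ-6438 differed from DMSO by -0.09 at chr17:39761313-39761746, opposite in sign to the fit. The KRT5 regions have too few values for these fits.

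HA-tagged FOXA1, which was expressed in cells carrying the hairpin against FOXA1, bound both leading luminal regions. K295A gave 67.8 and WT 62.6 at chr12:53343544-53343926, a ratio of K295A over WT of 1.08 (95% counting interval 0.794 to 1.48). At chr17:39695537-39695906 K295A gave 18.1 and WT 25.9, a ratio of 0.699 (0.395 to 1.21). Of all regions that the 8 FOXA1 libraries share, 90.8% held a K295A peak and 91.4% a WT peak genome-wide. The 95% intervals come from the tags of the peak and cover counting error only, and with 1 library per condition no difference between the proteins has a replicate check.

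K295A had peaks in 7 of the 22 regions and WT in 8, and 6 regions were called with both. Of all regions of the series, 45.6% had a K295A peak, 54.3% a WT peak and 38.1% both. The ratio of K295A over WT in these 6 ran from 0.592 to 1.30, beside quartiles of 0.767 and 1.15 over the 68151 regions called with both in the genome. Of the 6, 0 differed by at least 2-fold, beside 3.22% of all regions called with both. The other 3 luminal regions with both proteins lay in the KRT8 and KRT18 window. At chr12:53309403-53309793 K295A gave 21.8 and WT 16.8, at chr12:53270829-53271258 the values were 25.6 for K295A and 23.7 for WT, and at chr12:53307191-53307686 they were 13.6 for K295A and 15.3 for WT. The last 2 of these were called in 1 FOXA1 library each, both with P5091.

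The sixth region called with both proteins lay in the KRT5 window and was not called with the FOXA1 antibody. At chr12:52925932-52926236 K295A gave 15.8 and WT 26.7, a ratio of 0.592 (95% counting interval 0.328 to 1.05), with centres 1 base apart, and none of the 8 FOXA1 libraries nor the untagged libraries had a peak. Genome-wide, 24.3% of the regions called with both K295A and WT had no FOXA1 peak, as had 33.7% of those called with either, and 3 of the 9 keratin regions called with either. WT alone had peaks at chr12:53274095-53274399 (15.3) and chr12:53297084-53297388 (11.4) in the window of KRT8 and KRT18, also without a FOXA1 peak, and K295A alone had a peak at the KRT14 region chr17:39761313-39761746 (14.3). The HA lists were made with another antibody and without an input library, so levels are not compared with those of endogenous FOXA1. Per 100 kb, the luminal windows held a summed 97.9 for K295A and 114.0 for WT, and the basal windows 27.4 for K295A and 24.3 for WT. At the genome size of the headers, the whole genome had 88.5 for K295A and 102.5 for WT. The basal sums rest on 2 peaks for K295A and 1 peak for WT.

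**Figure D5:**
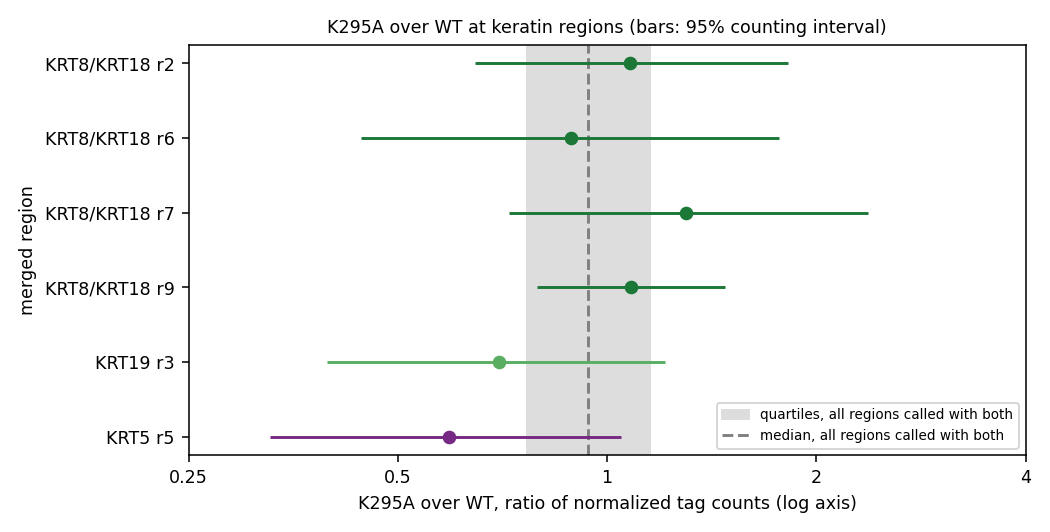
Ratio of K295A over WT normalized tag counts (log axis) at the 6 keratin regions called with both proteins, with 95% counting intervals as bars; the grey band spans the quartiles and the dashed line marks the median (0.940) over all regions called with both. All 6 intervals include a ratio of 1.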

How the data were processed

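The deposited files are 12 peak lists, 8 of FOXA1 ChIP and 4 of HA ChIP in LNCaP cells. Tools named in the submitters' processing notes are Bowtie2 and HOMER 4.2, and the build is hg19. Per the file headers, the authors called peaks in each library separately with findPeaks (factor style, false discovery rate 0.001), keeping those at least 4-fold over the surrounding 10 kb with a Poisson p of 0.0001. For FOXA1 the same filter was applied over an input, 1 per treatment, and for HA no input was used. Normalized tag counts are a deposited signal, the tags of a peak scaled to a library of 1e7 tags. The fold over local signal and fold over input are a ratio that the authors' peak caller gave to each peak, and the deposited findPeaks score served for a stricter threshold. In 3 libraries the deposited files also give a whole tag count for each peak. Whole tags recovered from the normalized values and the header totals fitted within print rounding for 100% of peaks and equalled that count for 97.3% to 100% of peaks in these 3; they were used for edgeR and counting intervals.

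Peaks of the 12 libraries with at least 1 base in common were joined into regions, and each library was given its highest peak in a region. limma (version 3.58.1, trend on, R 4.3.3) was fitted on log2 (tag count + 1), which understates changes of weak regions, with the 4 groups in the model and adjustment by Benjamini-Hochberg at 0.05; edgeR was version 4.0.16. The merging and limma steps were tested on simulated data. Regions described in full are those called in all 8 FOXA1 libraries and, in windows without one, the region called in most; the others named were chosen after their values were seen. The members and lists were chosen with earlier results of these data known. Other keratin genes were not analysed here, since no hg19 annotation was used.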

Additional observations from a re-analysis of the deposited data

How the results depend on the processing

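Most values share these limits: peaks are listed only above a calling threshold, so weak regions have values in part of the libraries, and each group has 2 libraries, of which combination replicate 1 is weak throughout. With a findPeaks score at or above the median of the pooled lists (20 for FOXA1 and 17 for HA), the luminal windows held 6 merged regions in place of 13 and the basal windows 3 in place of 9, and 1 luminal region in place of 2 was called in every FOXA1 library. Merging by centres within 100 bases, merging peaks up to 100 bases apart and merging FOXA1 libraries alone kept these counts within 1.5 times. Leaving out each library in turn gave 0 to 1 basal regions called in every remaining FOXA1 library, the 1 being chr17:39756561-39757023 without combination replicate 1.

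Counts of called regions over the genome moved from 0 as follows. With replicate block and centring on each library's median, limma called 167 for EPZ-6438 against DMSO, 1025 for the combination against DMSO and 1834 for the libraries with EPZ-6438 set against those without; with combination replicate 1 also left out, a fit added after seeing the data, it called 619, 213 and 1499. For the libraries with EPZ-6438 set against those without, centring alone gave 38, regions called in at least 4 libraries gave 5, and edgeR gave 36. Leaving out each library in turn gave 0 to 16162 for the combination, 0 to 11528 for the libraries with EPZ-6438, 0 to 7317 for all with P5091 and 0 to 5918 for the interaction, the highest each without combination replicate 2. The cause was not tested. The leading keratin regions did not pass in any of these fits other than those without combination replicate 2.

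The replicate numbers share no stated culture or day; deviations of replicate 1 from its group mean correlated at 0.148 to 0.488 between groups, and the replicate block alone left all 6 limma counts at 0, and unadjusted p-values below 0.05 numbered 326, 21 and 3881 for EPZ-6438, P5091 and the combination against DMSO. Some log2 differences at the leading regions changed sign, and none of these passed. At KRT8 and KRT18, P5091 against DMSO ran from -0.42 to 0.24 over left-out libraries, all libraries with P5091 gave 0.0177 with quantile normalization and 0.13 with block, centring and combination replicate 1 left out, the combination gave 0.0675 in that last fit, and the interaction gave 0.0528 with centring, with and without the block, 0.14 with quantile normalization, 0.43 in that last fit and -1.27 to 0.13 over left-out libraries. At KRT19, EPZ-6438 against DMSO ran from -0.35 to 0.12 and the interaction from -2.21 to 0.0071 over left-out libraries, with 0.12 in that last fit. A pseudocount of 5, summing peaks and scaling to 300 bases of peak turned no direction at these regions.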
